A study of Mus musculus with 8 samples.

Results

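The mouse Toll-like receptor genes other than Tlr4 were examined together with Unc93b1, the chaperone that several of them need. Rows of the deposited count table were chosen by gene symbol, as Tlr1, Tlr2, Tlr3, Tlr5, Tlr6, Tlr7, Tlr8, Tlr9, Tlr13 and Unc93b1. All 10 symbols were found, among 22013 genes. RNA came from RAW264.7 cells, a macrophage-like line derived from a mouse tumor, so the samples hold a single transformed line and no liver tissue. One group received PBS, the vehicle, and the other received recombinant FSTL1 (rFSTL1, follistatin-like 1, a secreted glycoprotein) at 100 ng/mL for 24 h. Each group had 4 libraries, and the labels do not say whether these came from separate cultures. The p-values therefore measure only the spread between these libraries, which may be technical. The comparison asks which pattern-recognition receptors the untreated line transcribed, and whether their transcripts differed after rFSTL1.

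Toll-like receptors are membrane proteins that bind conserved microbial molecules through an outer horseshoe of leucine-rich repeats and signal through an inner TIR domain. A set at the cell surface reads lipoproteins and flagellin, with TLR2 pairing with TLR1 or TLR6. Another set sits in endosomes and reads nucleic acids, and UNC93B1 carries these receptors there from the endoplasmic reticulum. Most pass the signal through the adaptor MYD88 to NF-κB and interferon regulatory factors, whereas TLR3 uses TRIF, the product of Ticam1. Macrophages use this family to sense bacteria, viruses and debris from dying cells.

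The total estimated count ranged from 15183118 to 20234477 per library under PBS and from 15062023 to 19260960 under rFSTL1. On the first principal component, which held 23.1% of the variance, the PBS libraries lay between -12.98 and -4.04 and the rFSTL1 libraries between 0.0153 and 17.5. The rFSTL1 replicate 4 library lay farthest out on it, and rFSTL1 replicate 2 stood apart on the second component at -19.8. Macrophage markers were high in both groups, with a summed 3396 to 3572 CPM (each count scaled to a common library total) under PBS and 3385 to 3634 CPM under rFSTL1. Of the 7 markers on that list, Mrc1, the mannose receptor, had only 27 counts in all and was not tested. Adgre1, which encodes F4/80, was low, at a mean of 3.43 CPM under PBS. Summed markers of B cells, T cells, neutrophils, fibroblasts and epithelium did not exceed 0.850 CPM in any library, and endothelial markers did not exceed 1.09 CPM. Dendritic cell markers summed to 52.1 to 55.4 CPM under PBS and 56.7 to 83.0 CPM under rFSTL1, nearly all of it Bst2, and their part in the results was not tested.

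The untreated line transcribed 7 of the 9 receptor genes, at very unequal levels. Levels are given as CPM per kilobase of the longest annotated transcript, so that genes of unlike length can be set beside each other. Tlr7, a receptor for single-stranded RNA, had the highest level under PBS, at 78.3 ± 1.44 CPM per kilobase (SD, n = 4), above 92.9% of all tested genes. Unc93b1 followed at 77.8 ± 2.49 CPM per kilobase (SD, n = 4), and its library range overlapped that of Tlr7. Tlr2, the shared subunit of the lipoprotein receptors, stood at 59.0 ± 0.924 CPM per kilobase (SD, n = 4), at the 90.1 percentile. Tlr13, which recognises bacterial ribosomal RNA and has no human counterpart, stood at 38.4 ± 0.969 CPM per kilobase (SD, n = 4), at the 83.6 percentile. The PBS libraries of these 4 genes lay above those of every other member.

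The remaining expressed members were far lower. Tlr6, a TLR2 partner for diacylated lipopeptides, had 5.50 ± 0.293 CPM per kilobase (SD, n = 4). Tlr9, the receptor for unmethylated CpG DNA, had 3.32 ± 0.336 CPM per kilobase (SD, n = 4). Tlr3, the receptor for double-stranded RNA, had 3.11 ± 0.250 CPM per kilobase (SD, n = 4), and its libraries overlapped those of Tlr9. Tlr1, the TLR2 partner for triacylated lipopeptides, was the lowest expressed member at 1.75 ± 0.359 CPM per kilobase (SD, n = 4), at the 13.5 percentile of tested genes. Other neighbours in this order did not overlap between PBS libraries.

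Transcripts of Tlr5 and Tlr8 were not detectable at this depth. Tlr5, the flagellin receptor (chr1:182954788-182976044, plus strand), had 0 counts in all 8 libraries, which allows up to 0.148 to 0.2004 CPM per library (3 counts, counting error only). Tlr8, an RNA receptor beside Tlr7 on chromosome X, had 0 counts in 7 libraries and 1 count in rFSTL1 replicate 4. The genes lie 40599 bases apart on the same strand of the GRCm38 reference, Tlr7 at chrX:167304929-167330558 and Tlr8 at chrX:167242696-167264329. The neighbours were thus at opposite ends of the order, with 4325 to 6053 counts per library for Tlr7. Among the receptors outside the members, Tlr4 lay between Tlr13 and Tlr6 at 21.6 ± 1.14 CPM per kilobase (SD, n = 4) under PBS, and Tlr11 and Tlr12 had 0 counts in every library.

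**Figure D1:**
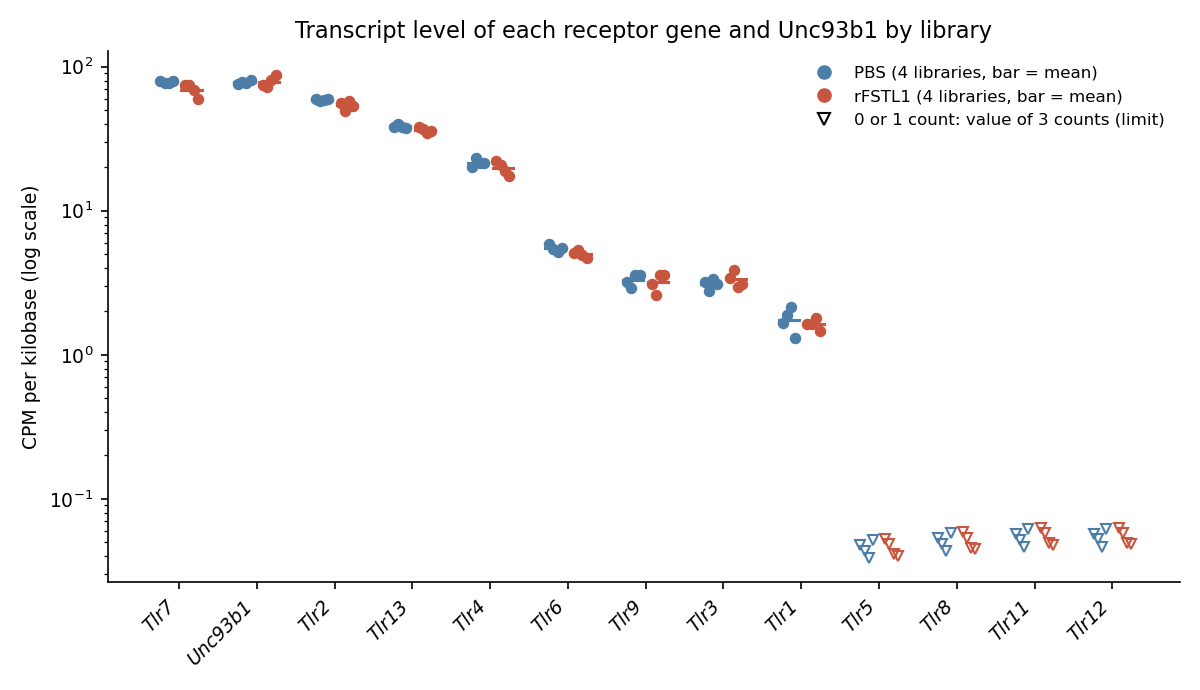
Transcript level of each gene by library, in CPM per kilobase on a log scale, ordered by the PBS mean. Points are libraries and bars are group means (n = 4 each), and open triangles mark the value of 3 counts for genes with 0 counts or 1 count. Tlr7, Unc93b1, Tlr2 and Tlr13 stand above Tlr4, and Tlr6, Tlr9, Tlr3 and Tlr1 lie below it.

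The order depended in part on the transcript length used. With the union of all exons, Unc93b1 fell to 58.2 CPM per kilobase, below Tlr2 at 59.0. With the mean transcript length, Tlr13 stood at 71.0 CPM per kilobase, above Tlr2 at 59.0, and Tlr3 at 7.04 stood above Tlr9 at 3.32. The levels themselves also moved with that length, to 150.6 CPM per kilobase for Tlr7, 149.5 for Unc93b1 and 9.82 for Tlr6. Tlr4 stood at 49.7 CPM per kilobase with that length and at 15.9 with the union of exons, below Tlr2 and Tlr13 under each. Tlr7 was first and Tlr1 the lowest detected member under each of these lengths.

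The levels of the member receptors were summed, with Unc93b1 and Tlr4 left out, to give the makeup of the repertoire. Tlr7, Tlr2 and Tlr13 made up 92.8% ± 0.318 (SD, n = 4) of the summed level under PBS and 92.4% ± 0.274 (SD, n = 4) under rFSTL1. The endosomal receptors Tlr3, Tlr7, Tlr8, Tlr9 and Tlr13 made up 65.0% ± 0.255 (SD, n = 4) under PBS, with all libraries between 64.7% and 65.3%. Under rFSTL1 their share was 64.9% ± 2.31 (SD, n = 4), with 65.7%, 67.8%, 62.9% and 63.1% in replicates 1 to 4. The mean share was thus nearly equal in the groups, and the rFSTL1 libraries lay on both sides of all PBS libraries. With Tlr4 counted in the sum, Tlr7, Tlr2 and Tlr13 made up 83.3% ± 0.458 and the endosomal receptors 58.4% ± 0.171 under PBS (SD, n = 4 each).

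Tlr1 and Tlr6 are near copies over a stretch of their coding sequence, and this bears on their values. They are neighbours on the minus strand of chromosome 5, Tlr1 at chr5:64924679-64933563 and Tlr6 at chr5:64952031-64960097, with 18467 bases between them. Of 78 pairs among all the Toll-like receptor genes and Unc93b1, they were the only pair whose transcripts shared an exact stretch of 20, 50 or 100 bases. The stretch of 259 bases below holds their longest identical run. As a contrast, 90 bases near the coding start are shown (coding bases 63 to 152 of Tlr1, 108 to 197 of Tlr6). Sequences are from the GRCm38 reference with GENCODE M21 models, 5′ to 3′ on the coding strand, not read from these libraries. Capitals mark the bases that differ between the genes.
Tlr1, chr5:64925522-64925780: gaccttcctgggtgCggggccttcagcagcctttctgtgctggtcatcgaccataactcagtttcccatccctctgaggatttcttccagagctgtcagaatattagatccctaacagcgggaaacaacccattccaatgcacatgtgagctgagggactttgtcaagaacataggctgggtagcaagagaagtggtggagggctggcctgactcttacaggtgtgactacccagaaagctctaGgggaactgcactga
Tlr6, chr5:64953813-64954071: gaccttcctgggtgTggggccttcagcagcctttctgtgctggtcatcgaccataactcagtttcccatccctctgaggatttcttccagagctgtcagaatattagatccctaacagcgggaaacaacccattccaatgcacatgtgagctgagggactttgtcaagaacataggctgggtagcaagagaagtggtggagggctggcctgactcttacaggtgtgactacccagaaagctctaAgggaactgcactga
Tlr1, chr5:64927081-64927170: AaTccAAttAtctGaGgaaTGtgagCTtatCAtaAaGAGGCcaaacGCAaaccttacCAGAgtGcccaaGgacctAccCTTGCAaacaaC
Tlr6, chr5:64955366-64955455: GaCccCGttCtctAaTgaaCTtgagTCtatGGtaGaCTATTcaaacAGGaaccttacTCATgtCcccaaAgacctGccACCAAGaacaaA

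All of these stretches are coding and exonic. The longer pair differed at 2 of 259 bases around an identical run of 229 bases, whereas the pair near the coding start differed at 36 of 90. Over the whole alignment, 77.0% of 2342 aligned coding bases were identical. In windows of 100 bases of Tlr1, 9 of 23 reached at least 95% identity, and the lowest, coding bases 801 to 900, had 52.0%. A read of 100 bases taken wholly from inside the Tlr1 coding sequence would match Tlr6 exactly at 259 of 2289 possible positions (11.3%).

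The estimated counts showed this overlap. Tlr1 and Tlr6 had fractional values in all 8 libraries, and every other member had whole values. The Tlr1 count was 83.22, 102.71, 131.87 and 60.18 in PBS replicates 1 to 4, beside 356.78, 360.29, 387.13 and 307.82 for Tlr6. Under rFSTL1 it was 73.77, 80.37, 104.49 and 86.22, beside 278.23, 317.63, 345.51 and 335.78 for Tlr6. Their sum was a whole number in 8 of 8 libraries, from 352 to 519. The Tlr6 to Tlr1 ratio of level ranged from 2.41 to 4.22 over the PBS libraries and from 2.74 to 3.27 over the rFSTL1 libraries. Since the counts were divided between near copies, the value of each gene alone is uncertain, and their sum is given beside them.

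**Figure D2:**
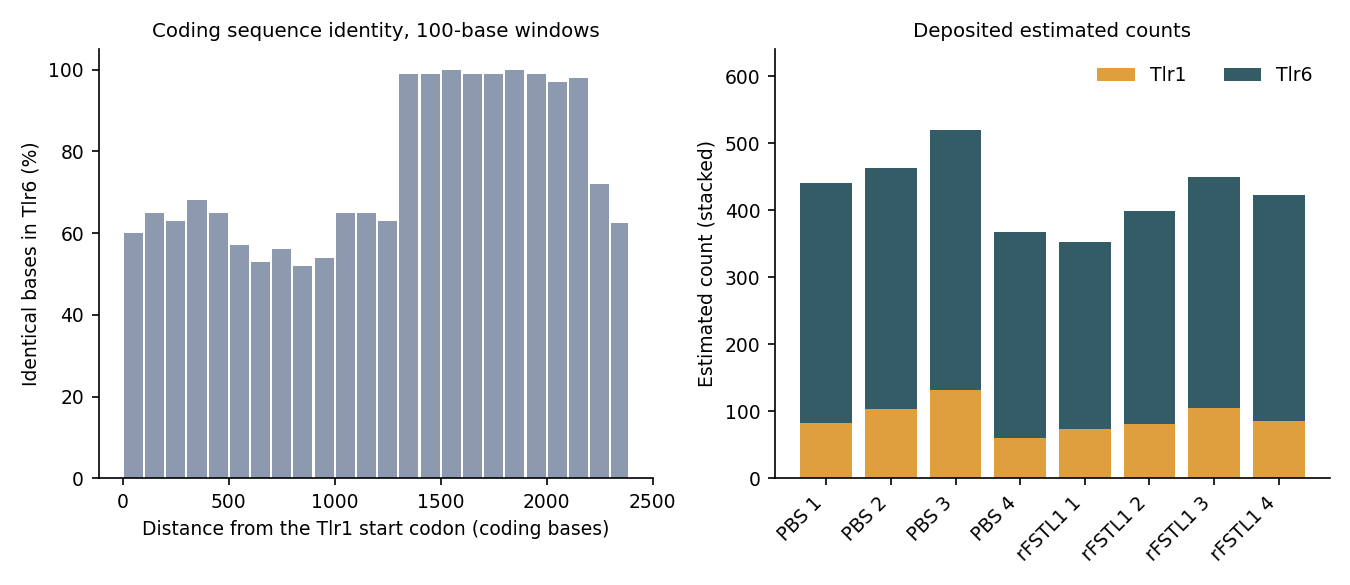
Left, share of Tlr1 coding bases that are identical in Tlr6 (%), in windows of 100 bases by distance from the Tlr1 start codon. Right, deposited estimated counts of Tlr1 and Tlr6 stacked for each library, whose sums lie between 352 and 519. Identity is highest between coding bases 1301 and 2200.

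For the comparison of the groups, 8 of the 10 members passed the filter on low counts, Tlr5 and Tlr8 being too low. None had an adjusted p under 0.05 (0 of 8) by the quasi-likelihood test of edgeR after Benjamini-Hochberg correction, where 0.344% of all tested genes did. DESeq2 gave an adjusted value for 7 of them, Tlr1 being left without one, and called 0 of 7, where it called 2.12% of all genes with such a value. The weighted limma voom fit, with sample quality weights, called 1, Tlr7, which was lower, where it called 4.22% of all genes and 1.95% as lower. At an unadjusted p under 0.05, edgeR gave 2 of 8, Tlr7 and Tlr2, both lower, where 7.56% of all genes were lower at that level. Tlr7 and Tlr2 were also the members whose groups did not overlap, as was the case for 8.16% of all genes, with 3.53% of all genes lower. The log2 fold change was negative for 6 of 8 members, with a median of -0.10, beside 48% of all genes and a median of 0.0058. Over 18 alternative fits, between 4 and 7 members were negative and the median ranged from -0.12 to -0.04, the value closest to 0 being the one without PBS replicate 3.

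Among the surface receptors, Tlr2 (ENSMUSG00000027995, chr3:83836272-83841767, minus strand) had 181, 175, 176 and 179 CPM in PBS replicates 1 to 4. It had 168, 148, 174 and 161 CPM in rFSTL1 replicates 1 to 4. Every rFSTL1 library was below every PBS library, replicate 3 by the least and replicate 2 by the most. The means were 178 ± 2.79 and 163 ± 11.0 CPM (SD, n = 4 each), a log2 fold change of -0.13 (standard error, SE, 0.05, 95% interval -0.23 to -0.02). The adjusted p was 0.237 by edgeR (Benjamini-Hochberg), and the two-sided exact permutation p was 0.0286, the smallest that 4 against 4 libraries allow. Over all alternatives the adjusted p ranged from 0.121 to 0.420 and the log2 fold change from -0.16 to -0.09.

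Tlr6 (ENSMUSG00000051498) had 21.7, 19.9, 19.1 and 20.2 CPM under PBS and 18.6, 19.6, 18.1 and 17.3 CPM under rFSTL1. The groups overlapped through rFSTL1 replicate 2 and PBS replicate 3. The fitted difference was -0.14 on the log2 scale (SE 0.08, adjusted p = 0.376 by edgeR, Benjamini-Hochberg). Tlr1 (ENSMUSG00000044827) had 5.04, 5.70, 6.51 and 3.94 CPM under PBS and 4.94, 4.93, 5.44 and 4.41 CPM under rFSTL1. All rFSTL1 libraries lay inside the PBS range. Tlr1 differed by -0.12 on the log2 scale, with a 95% interval of -0.45 to 0.22, the widest of the members. It was 0.0037 without PBS replicate 3 and -0.23 without PBS replicate 4. With the estimated counts of the pair summed, the mean was 25.5 ± 1.04 CPM under PBS and 23.3 ± 1.19 CPM under rFSTL1 (SD, n = 4 each). The summed pair differed by -0.13 on the log2 scale (SE 0.07, adjusted p = 0.345 by edgeR, Benjamini-Hochberg), and its groups overlapped.

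Among the endosomal receptors, Tlr7 (ENSMUSG00000044583) had 308, 302, 299 and 311 CPM in PBS replicates 1 to 4. It had 289, 291, 268 and 232 CPM in rFSTL1 replicates 1 to 4. The groups did not overlap, and rFSTL1 replicate 4 was the lowest library. The means were 305 ± 5.61 and 269.9 ± 27.4 CPM (SD, n = 4 each), a log2 fold change of -0.18 (SE 0.06, 95% interval -0.30 to -0.05). The adjusted p was 0.192 by edgeR (Benjamini-Hochberg), and the two-sided exact permutation p was 0.0286. Limma voom with sample quality weights gave -0.18 with an adjusted p of 0.0392, within a range of 0.0392 to 0.423 over the alternatives. Without rFSTL1 replicate 4 the log2 fold change was -0.11 (adjusted p = 0.305 by edgeR), and with a length and GC trend removed from each library it was -0.10 (adjusted p = 0.238 by edgeR).

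Tlr13 (ENSMUSG00000033777, chrX:106143204-106160493, plus strand) had 155, 161, 156 and 152 CPM under PBS and 156, 150.1, 139.6 and 145 CPM under rFSTL1. The groups overlapped, with rFSTL1 replicate 1 inside the PBS range. The fitted log2 difference was -0.08 (SE 0.04, adjusted p = 0.377 by edgeR, Benjamini-Hochberg), and -0.03 with the length and GC trend removed.

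Tlr9 (ENSMUSG00000045322, chr9:106222598-106226883, plus strand) had 11.1, 10.1, 12.5 and 12.5 CPM under PBS and 10.8, 9.05, 12.5 and 12.5 CPM under rFSTL1. The groups overlapped almost wholly. Its log2 fold change was -0.04, with a 95% interval of -0.29 to 0.21, and turned to 0.02 with limma voom, to 0.01 without PBS replicate 3 and to 0.04 without rFSTL1 replicate 2. It moved the other way to -0.12 with the length and GC trend removed, and to -0.0975 without PBS replicate 2. Tlr3 (ENSMUSG00000031639, chr8:45395665-45411080, minus strand) had 14.1, 12.2, 14.9 and 13.7 CPM under PBS and 15.03, 17.1, 13.1 and 13.6 CPM under rFSTL1. It was the only receptor tested with a positive value, at a log2 fold change of 0.09 (95% interval -0.12 to 0.31), and its groups overlapped. That value fell to 0.006 without rFSTL1 replicate 2, and was 0.04 without PBS replicate 2 and 0.19 with the length and GC trend removed. The span of Tlr3 overlaps that of Gm45542 on the other strand in GENCODE M21. Whether their exons overlap was not examined, and the strand of counting is not stated.

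Unc93b1 (ENSMUSG00000036908, chr19:3935186-3949340, plus strand) had 171, 177, 173 and 184 CPM under PBS. It had 168, 164, 183 and 199 CPM under rFSTL1, so the treated libraries reached both below and above the PBS range. Its log2 fold change was 0.02 (SE 0.06, 95% interval -0.10 to 0.14). The sign turned to -0.07 when the length and GC trend was removed, and to -0.04 without rFSTL1 replicate 4. The ratio of the summed endosomal receptor level to the Unc93b1 level was 1.64, 1.57, 1.595 and 1.53 in the PBS libraries. In the rFSTL1 libraries it was 1.602, 1.64, 1.35 and 1.16, so replicates 3 and 4 lay below the PBS range and replicates 1 and 2 within it.

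**Figure D3:**
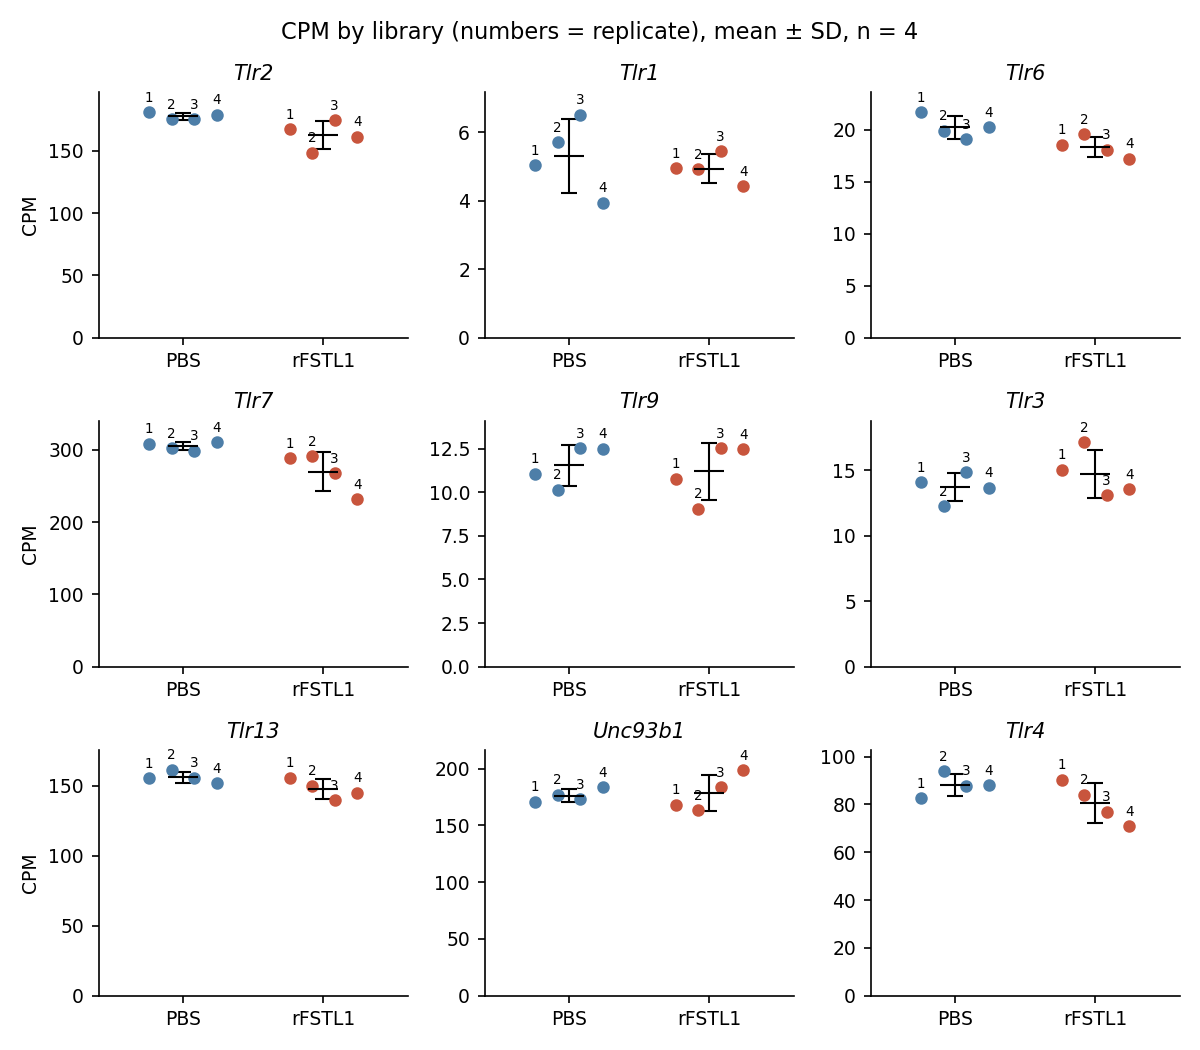
CPM of the 8 tested members and of Tlr4 in each library, with axes that start at 0. Points are libraries numbered by replicate, and black bars are means ± SD (n = 4 per group). The PBS and rFSTL1 points do not overlap for Tlr2 and Tlr7 and overlap for the others.

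The treated libraries varied more than the PBS libraries. The SD of log2(CPM + 1) was larger under rFSTL1 for 6 of 8 members, beside 65.6% of all tested genes. For Tlr7 it was 0.03 under PBS and 0.15 under rFSTL1, and for Tlr2 it was 0.02 and 0.10. The ratio of the Tlr7 to the Tlr2 level was 1.32, 1.33, 1.32 and 1.34 in the PBS libraries and 1.33, 1.52, 1.19 and 1.11 in the rFSTL1 libraries. The receptors that made up most of the repertoire thus kept a nearly constant ratio under PBS and an uneven one under rFSTL1, with replicate 2 above and replicates 3 and 4 below the PBS range. The summed receptor level was 187.5 to 191 CPM per kilobase under PBS and 181, 174, 174 and 162 CPM per kilobase in rFSTL1 replicates 1 to 4. In a bulk sample, fewer cells with a receptor and less RNA per cell cannot be told apart.

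Tlr4, which encodes the lipopolysaccharide receptor, had 82.6, 94.0, 87.8 and 88.0 CPM under PBS and 90.3, 84.1, 77.0 and 70.8 CPM under rFSTL1, with groups that overlapped. Tlr4 differed by -0.13 on the log2 scale (SE 0.07, adjusted p = 0.343 by edgeR, Benjamini-Hochberg).

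**Figure D4:**
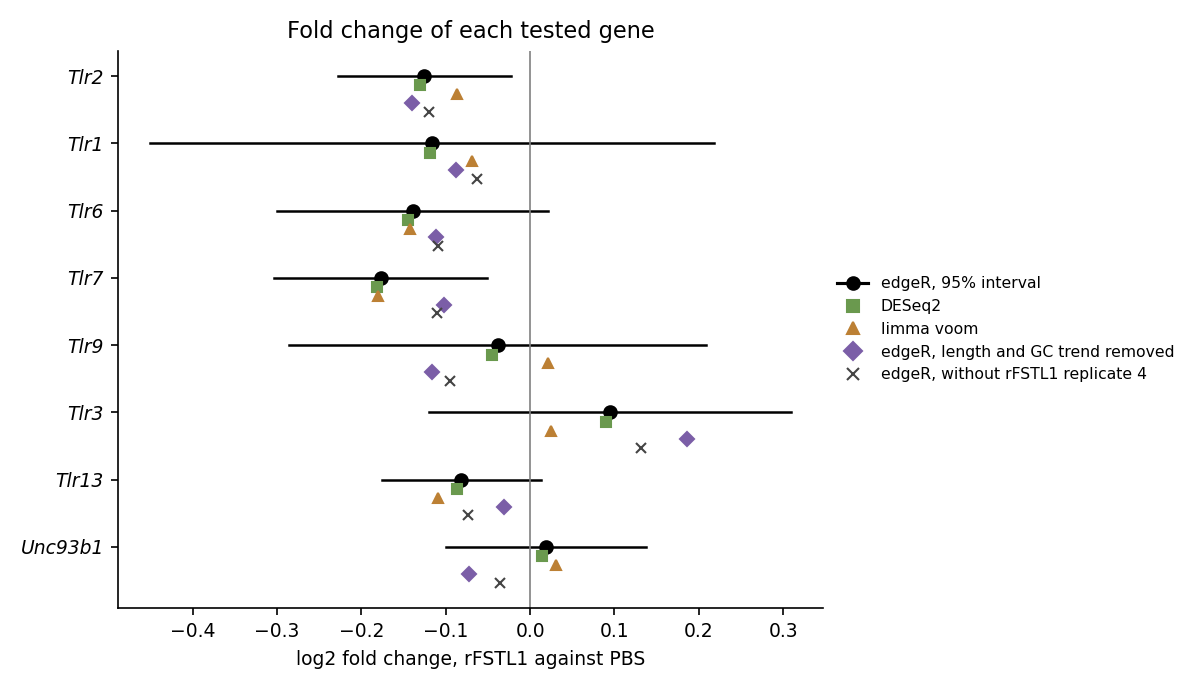
Log2 fold change of rFSTL1 against PBS for each tested member. Black points and lines are edgeR estimates with 95% intervals, and coloured symbols are DESeq2, limma voom, edgeR with a length and GC trend removed, and edgeR without rFSTL1 replicate 4. The intervals of Tlr2 and Tlr7 lie below 0, and the symbols of Tlr9 and Unc93b1 fall on both sides of it.

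The library pattern of Tlr7 was also compared with that of every tested gene outside the members. Over the 8 libraries, log2(CPM + 1) of Tlr7 was most like that of Luc7l3, a splicing factor gene (Pearson r = 0.99, Spearman rho = 0.976), Nol11, a ribosome biogenesis gene (r = 0.987, rho = 0.929), and Kbtbd2 (r = 0.983, rho = 0.952). These correlations describe the libraries and share their depth and group. The genes were picked for having the highest Pearson r among all tested genes, members left out. All 3 genes were lowest in rFSTL1 replicate 4, as Tlr7 was, at 165, 104.6 and 50.8 CPM.

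The rest of the pathway was read from lists of genes by role. Among 15 genes for receptor chaperones, co-receptors and endosomal transport, 13 were tested and 0 passed an adjusted p under 0.05 by edgeR, with 2 higher at an unadjusted p under 0.05 (8.29% of all genes) and a median log2 fold change of 0.04. Those 2 were Ly86, which encodes the RP105 partner MD-1 and went from 57.0 to 61.5 CPM, and Cd14, a co-receptor, which went from 810 to 859 CPM. Neither gene overlapped between groups, as was the case for 8.16% of all genes (4.63% higher), and their adjusted p-values were 0.291 and 0.293 by edgeR, Benjamini-Hochberg. The endosomal proteases and nucleases that process receptors or their ligands had 10 of 10 genes tested, 0 past the threshold and 0 at an unadjusted p under 0.05, with a median of 0.04. Their smallest unadjusted p-values were those of Ctsb, a cathepsin, at a log2 fold change of 0.07, and Rnaset2b, a lysosomal ribonuclease, at 0.15. Rnaset2b has a near-identical copy in the mouse genome, so its count is uncertain.

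The adaptors, kinases and ubiquitin ligases gave no call by edgeR either. Over all the pathway lists, DESeq2 called 6 genes and limma voom 7, against 3 by edgeR, all of them higher. Those calls were not broken down by list. All 7 adaptors were tested, and 0 passed the threshold by edgeR or had an unadjusted p under 0.05. Myd88 had 68.2 ± 3.34 CPM under PBS and 65.3 ± 1.96 CPM under rFSTL1 (SD, n = 4 each), and Ticam1 had 17.2 ± 0.946 and 18.5 ± 1.81 CPM (SD, n = 4 each), with overlap in both. All 17 kinases and ubiquitin ligases were tested, 0 passed, and 2 were lower at an unadjusted p under 0.05, beside 7.56% of all genes, with a median of -0.04. These were Chuk, which encodes IKK alpha, at a log2 fold change of -0.14, and Map3k7, which encodes TAK1, at -0.10. Their adjusted p-values were 0.262 and 0.286 by edgeR, Benjamini-Hochberg.

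No transcription factor or negative regulator passed the threshold by edgeR, where 0.326% of all genes rose. Fold changes were positive for 6 of 7 transcription factors and 8 of 11 negative regulators, beside 52% of all genes. They were also positive for 11 of 13 chaperone and transport genes, 8 of 10 proteases and nucleases and 5 of 7 adaptors, but for only 5 of 17 kinases and ubiquitin ligases. Of 7 transcription factors tested, 3 were higher at an unadjusted p under 0.05, beside 8.29% of all genes, with a median of 0.14. Irf7, the factor for interferon output of the endosomal receptors, had 31.2, 29.5, 28.8 and 28.7 CPM under PBS and 33.0, 51.3, 39.0 and 36.5 CPM under rFSTL1. The groups did not overlap, and rFSTL1 replicate 2 was the highest. Irf7 differed by 0.44 on the log2 scale (SE 0.10, adjusted p = 0.0789 by edgeR, Benjamini-Hochberg). Irf8, a myeloid lineage factor, differed by 0.23 on the log2 scale (adjusted p = 0.0951 by edgeR, Benjamini-Hochberg). Of 12 negative regulators, 11 were tested and 3 were higher at that level, beside the same 8.29%, with a median of 0.05. They included Sigirr, an inhibitory receptor with a TIR domain, at a log2 fold change of 0.38, and Tnip3, an inhibitor of NF-κB signalling, at 0.17.

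Among 16 genes that Toll-like receptor signals are known to induce, 12 were tested, with a median log2 fold change of 0.22. Of these, 3 rose by edgeR, beside 0.326% of all tested genes that rose. They were the chemokines Ccl3 and Ccl4, with log2 fold changes of 0.40 and 0.51, and Nos2, which encodes inducible nitric oxide synthase, with 0.93. The adjusted p-values were 0.00363, 0.0151 and 0.0299 by edgeR, Benjamini-Hochberg, and none of the 3 genes overlapped between groups. The list was chosen with results for these genes known, so its count is not independent evidence. Leaving out PBS replicate 3, PBS replicate 4 or rFSTL1 replicate 3 in turn left 1 gene over all the pathway lists. The other 4 genes were too low to test, with Il1b at 4 counts, Il6 at 3, Ifnb1 at 1 and Il12b at 0 over all 8 libraries.

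**Figure D5:**
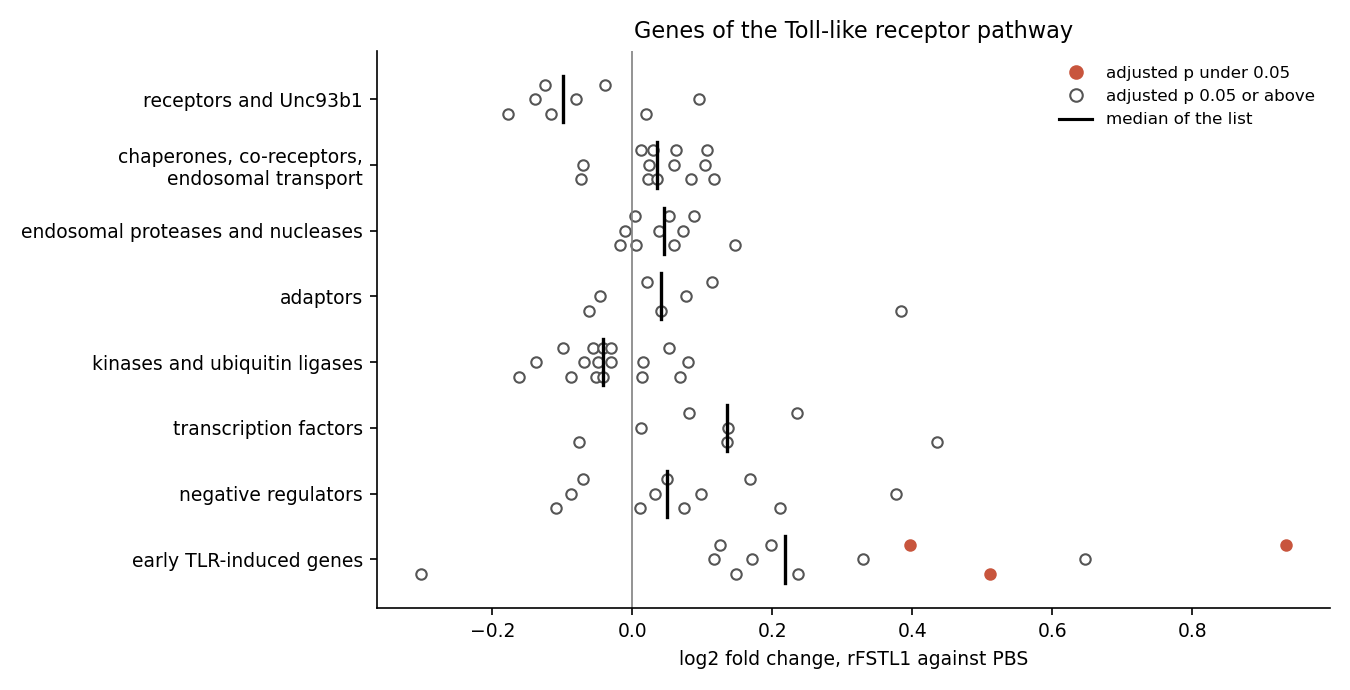
Log2 fold change of rFSTL1 against PBS for every tested gene of each list, 1 circle per gene, with the list's median as a black bar. Filled circles have an adjusted p under 0.05 by edgeR. The 3 filled circles are Ccl3, Ccl4 and Nos2, and the median of the receptors and Unc93b1, -0.10, lies to the left of 0.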

How the data were processed

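RNA-seq was analysed for 8 RAW264.7 libraries, 4 per group, with groups and replicate numbers given by the sample labels. The authors made an estimated count of reads for each of 22013 genes and deposited these values without normalization. The submitters' processing notes name Bowtie2 2.2.8, HISAT2, StringTie 1.3.1 and DESeq2, without roles. The counting tool, genome build, annotation and strand setting are not given in the sources used here. Of the nonzero values, 13% were not whole (tolerance 1e-06), and all were rounded before testing. A symbol was missing for 112 rows.

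Genes were kept by filterByExpr (minimum count 10), scaled by TMM and compared with edgeR 4.0.16 (glmQLFit, glmQLFTest) and limma 3.58.1 in R 4.3.3, over 10748 genes, adjusted p-values (Benjamini-Hochberg) being called under 0.05. CPM used TMM-scaled totals. Two-sided exact permutation tests used log2(CPM + 1) over 70 assignments. Lengths, positions and sequences came from GENCODE M21 (GRCm38), matched by Ensembl identifier. Lengths were found for 99.7% of tested genes. Shares and ratios were given no test.

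The members and gene lists were chosen with earlier results of these data known. All members and Tlr4, Tlr11 and Tlr12 are named, with, from each other list, the genes past the threshold and the 2 with the smallest p, and the 3 genes most correlated with the member of smallest p. Alternatives were DESeq2 1.42.0, limma voom, other scalings, filters, thresholds and lengths, a replicate block, and leaving out each library. A fit that removes each library's trend with gene length and GC (splines, 4 degrees of freedom), the sum of Tlr1 and Tlr6, and Tlr4 in the receptor sum were added after seeing the data. The fits were tested on simulated data. Library pairs within a group differed by more than sampling noise (chi-square per degree of freedom at least 3.03).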

Additional observations from a re-analysis of the deposited data

How the results depend on the processing

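The count of all genes past the threshold was 37, and became 197 with DESeq2, 454 with limma voom, 56 with upper-quartile scaling, 127 with all genes of at least 1 count, 133 at an adjusted p under 0.1, 73 with the length and GC trend removed and 71 with that removal and a replicate block together. It ranged from 11 (without PBS replicate 2) to 99 (without rFSTL1 replicate 1) when 1 library was left out. For the members the count of 0 became 1 with limma voom (Tlr7, -0.18) and was 0 in every other alternative run. The count for the pathway lists was 3, and became 6 with DESeq2, 7 with limma voom and 5 at an adjusted p under 0.1, with 1 to 4 when 1 library was left out. Of 154 alternative values for the 8 tested members, which include the same fit read at another threshold, 8 changed sign. Unc93b1 turned to -0.07 with the trend removed (-0.0725, and -0.0735 with the replicate block added), to -0.0025 without PBS replicate 1 and to -0.0361 without rFSTL1 replicate 4, with 0.0513 its highest value without 1 library. Tlr1 turned to 0.0037 without PBS replicate 3, and was at its lowest, -0.2334, without PBS replicate 4. Tlr9 turned to 0.0217 with limma voom, to 0.0057 without PBS replicate 3 and to 0.0417 without rFSTL1 replicate 2, and among the fits without 1 library was lowest without PBS replicate 2, at -0.0975. The causes were not tested. The endosomal share of receptor level under PBS was 65.0%, and became 63.9% with the union of exons and 76.5% with the mean transcript length, since each changes the lengths that divide the counts. With Tlr4 in the sum it was 58.4%. Deviations of same-numbered libraries were uncorrelated (-0.018 to 0). This shows no shared deviation, but cannot tell whether same-numbered libraries were handled together. A replicate block gave Tlr7 -0.18 and Tlr2 -0.13 and changed no call of a member. With 4 libraries a group, the 95% intervals of the members other than Tlr1 reached no further than 0.31 from 0 on the log2 scale.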
